A study of Mus musculus with 2 samples.

Results

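Complex IV of the respiratory chain, cytochrome c oxidase, hands electrons from cytochrome c to oxygen and pumps protons across the inner mitochondrial membrane. Its catalytic core is encoded by the mitochondrial genome, and the nuclear subunits around the core tune its activity and stability. Several nuclear subunits exist in paired forms, a general form found in most tissues and a tissue form typical of heart and skeletal muscle, lung or hypoxic cells. In pancreatic β cells, oxidation of glucose through this chain raises ATP, which closes potassium channels and sets off insulin secretion.

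Described here are 9 genes of these paired forms among the 31053 genes of the count tables, in islet cells from WT and Npc1KO mice. They were the muscle form Cox6a2 with its general partner Cox6a1, the lung and hypoxia form Cox4i2 with Cox4i1, the muscle form Cox7a1 with Cox7a2, the hypoxia-inducible Ndufa4l2 with Ndufa4, and Cox8a. All 9 were listed symbols, and Cox6a2 was picked by its fall in Npc1KO β cells, so that fall is given as a description with no test. NPC1 carries cholesterol out of the lysosome, and the Npc1KO mice lack it in all tissues and were of C57BL/6J background with WT littermates as controls. Each genotype gave 1 library, made from the pooled islets of 3 female mice aged 2 weeks, so differences between WT and Npc1KO cells could not be checked against replicates, and the 95% intervals cover counting error only.

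The WT library held 8569 barcodes and the Npc1KO library 7646, of which 4628 and 4269 passed the filters with medians of 18905 and 21381 unique molecular identifiers (UMIs, each standing for 1 captured RNA molecule). Npc1 itself was counted 790 times in the kept WT cells and 391 times in the kept Npc1KO cells, or 8.40 and 4.14 UMIs per 1000000 UMIs of the same cells (CPM). Where the disrupted part of Npc1 lies relative to the counted 3′ end is not given in the sources used here, so these reads do not check the genotype. Cells were classed by their leading hormone, or otherwise by marker genes, into β (1833 WT and 1826 Npc1KO cells), α (1048 and 857), δ (189 and 141), PP (411 and 442), endothelial (429 and 434), stellate (232 and 252), mesenchymal (66 and 66) and macrophage (52 and 33) cells. Each class had its own markers among its 10 leading genes, which is no check of the classes, since these hormones and markers set them. Ndufa4l2 was itself among the 10 of stellate cells. The δ and PP classes overlapped, since 182 of 189 WT and 138 of 141 Npc1KO δ cells carried a second hormone at 5% of UMIs or more. The libraries also differed in blood cells, with 141 B and 60 T cells in WT against 1 B cell in Npc1KO, and they shared 12 barcodes, of which 3 were kept in both.

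The paired forms are different genes on different chromosomes, and their sequences show how far reads can tell them apart. Cox6a2 (ENSMUSG00000030785) lies at chr7:128205435-128206387 on the minus strand of GRCm38 with 3 exons, and Cox6a1 (ENSMUSG00000041697) at chr5:115345642-115348981, minus strand, also with 3 exons. Their coding sequences, read from GENCODE transcripts, aligned over 290 bases of which 188 (64.8%) were identical. Coding bases 1 to 291 of Cox6a2 and 37 to 336 of Cox6a1 are shown because every statement on isoform choice in β cells rests on telling them apart. Capitals mark bases that differ in the alignment, and bases without a partner stay in lower case.
Cox6a2: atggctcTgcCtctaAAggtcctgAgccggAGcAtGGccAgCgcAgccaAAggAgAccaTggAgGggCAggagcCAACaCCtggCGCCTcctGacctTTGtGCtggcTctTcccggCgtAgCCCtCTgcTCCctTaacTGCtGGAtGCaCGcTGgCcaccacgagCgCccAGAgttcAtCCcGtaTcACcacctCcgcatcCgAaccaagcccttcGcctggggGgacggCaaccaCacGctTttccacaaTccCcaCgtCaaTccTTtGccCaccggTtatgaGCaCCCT
Cox6a1: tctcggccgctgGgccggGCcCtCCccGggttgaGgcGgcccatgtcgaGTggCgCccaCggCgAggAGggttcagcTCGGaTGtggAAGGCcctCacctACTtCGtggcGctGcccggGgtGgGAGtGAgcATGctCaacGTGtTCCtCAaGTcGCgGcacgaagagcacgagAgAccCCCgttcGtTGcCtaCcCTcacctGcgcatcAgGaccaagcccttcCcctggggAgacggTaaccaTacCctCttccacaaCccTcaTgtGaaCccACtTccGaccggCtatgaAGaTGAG

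Ndufa4l2 (ENSMUSG00000040280, chr10:127514967-127517154, plus strand) and Ndufa4 (ENSMUSG00000029632, chr6:11900292-11907497, minus strand) have 4 exons each and were identical at 165 of 242 aligned coding bases (68.2%). They are shown in full, in the same way, because this pair changed place most completely between cell classes.
Ndufa4l2: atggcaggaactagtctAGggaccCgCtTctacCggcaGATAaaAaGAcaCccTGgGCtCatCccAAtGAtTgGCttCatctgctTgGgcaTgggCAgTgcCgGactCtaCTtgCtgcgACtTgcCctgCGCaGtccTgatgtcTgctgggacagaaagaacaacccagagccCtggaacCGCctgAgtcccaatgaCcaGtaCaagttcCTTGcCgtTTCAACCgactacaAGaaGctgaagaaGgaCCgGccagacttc
Ndufa4: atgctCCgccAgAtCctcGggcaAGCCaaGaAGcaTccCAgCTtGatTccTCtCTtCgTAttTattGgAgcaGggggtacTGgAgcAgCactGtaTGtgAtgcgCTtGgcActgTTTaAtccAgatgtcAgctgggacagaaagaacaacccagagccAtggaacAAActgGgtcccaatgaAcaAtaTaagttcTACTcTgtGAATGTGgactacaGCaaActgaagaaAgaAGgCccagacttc

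The longest run shared by the transcripts of a pair was 28 bases, for Ndufa4l2 and Ndufa4, and 12 to 14 bases for the other pairs. In the last 400 bases of each member's transcript, where 3′ reads fall, no 50-base stretch occurred in a transcript of another gene, apart from 2.85% of the stretches of Cox6a1, which a gene that is not listed in the count tables shares. Cox4i1 overlaps the annotated gene Gm20388 on the same strand but shares no such stretch with it there, and any loss of reads that fit both was not tested. Itgad lies over Cox6a2 on the opposite strand, and Shmt2 over Ndufa4l2.

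Promoters of 5 of the 9 members, from 250 bases before to 50 after the start, were found in the RefSeq table (GRCm38.p6): those of Cox6a1, Cox7a1, Cox7a2, Cox8a and Ndufa4. The promoters of Cox7a1 and Cox7a2 are shown because this is the only pair with both promoters in the table. Capitals mark CG dinucleotides, and the sequences are chr7:30183921-30184220 (plus strand) and chr9:79759804-79760103 (minus strand).
Cox7a1: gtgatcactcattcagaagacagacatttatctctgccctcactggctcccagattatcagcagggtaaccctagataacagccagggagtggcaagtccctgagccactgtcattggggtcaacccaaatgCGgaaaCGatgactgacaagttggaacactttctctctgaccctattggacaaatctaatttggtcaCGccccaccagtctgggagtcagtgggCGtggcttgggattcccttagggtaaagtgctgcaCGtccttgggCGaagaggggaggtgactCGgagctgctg
Cox7a2: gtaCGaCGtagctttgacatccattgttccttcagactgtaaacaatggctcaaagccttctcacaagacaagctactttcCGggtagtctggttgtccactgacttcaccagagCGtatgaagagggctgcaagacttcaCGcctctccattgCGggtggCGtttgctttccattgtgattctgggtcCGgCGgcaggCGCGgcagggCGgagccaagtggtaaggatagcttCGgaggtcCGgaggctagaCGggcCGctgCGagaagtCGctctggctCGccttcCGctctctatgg

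The Cox7a1 promoter held 7 CG dinucleotides, equal to the median of 7 over 32851 promoters of this length, and the Cox7a2 promoter held 20, more than in 73.5% of them. The other general forms held 14 (Ndufa4), 19 (Cox8a) and 32 (Cox6a1). NRF1 is a transcription factor known to act on many respiratory chain promoters, and the core of its motif, GCATGCGC or GCGCATGC on the other strand, occurred in the Cox6a1 promoter at overlapping positions 89 and 91 of 300 and in none of the other 4. It occurred in 2.71% of all promoters, and a match is a description of these letters only.

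Cox6a2 was the tissue form of β cells. In WT β cells 1230 UMIs of Cox6a2 were counted among 54792591, a level of 22.4 CPM (21.2 to 23.7). In Npc1KO β cells 248 were counted among 54150278, or 4.58 CPM (4.03 to 5.19). The WT level was 4.90 times the Npc1KO level (4.27 to 5.64). On the log2 scale, relative to the median gene, whose own log2 ratio Npc1KO to WT was 0.12 in β cells, this is -2.41 (-2.62 to -2.21). These intervals take UMIs as independent, while the Cox6a2 UMIs lay unevenly over cells, so they may be too narrow. Cox6a2 was picked by its fall in Npc1KO β cells and reached 5 CPM in WT alone. Its rank in this contrast therefore describes the choice and is no support for it. Among the 8858 genes that reached 5 CPM in WT or Npc1KO β cells, Cox6a2 stood at rank 5 from the lowest. The pancreatic lipase-related gene Pnliprp1 lay just below it (-2.49) and the digestive enzyme gene Ctrb1 just above it (-2.40). The lowest ranks 1 to 3 were held by Cd74 (-6.12), Clps (-3.05) and Reg1 (-2.74), which are known from immune and acinar cells. The 4 acinar markers summed to 77.6 CPM in WT and 24.9 CPM in Npc1KO β cells, and their part in the order of genes was not tested. Of 9 markers of striated muscle, the usual home of Cox6a2, 4 were counted in each library. They summed to 0.438 CPM in WT and 1.53 CPM in Npc1KO β cells. Actn2 gave 10 UMIs in WT and 70 in Npc1KO, Myh7 8 and 7, and Ckm 5 and 5. Mb gave 1 and 0, Myh6 0 and 1, and Ckmt2, Myl2, Tnnt2 and Tnnt3 were at 0 in both.

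The general partner lay close to the median gene. Cox6a1 stood at 133 CPM (130.2 to 136) in WT and 142 CPM (138 to 145) in Npc1KO β cells, a relative log2 ratio of -0.03 (-0.08 to 0.01). Cox6a2 thus made up 14.4% (13.7 to 15.2) of the UMIs of the pair in WT β cells and 3.13% (2.76 to 3.54) in Npc1KO β cells. The summed level of the pair was 156 CPM in WT and 146 CPM in Npc1KO.

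Of the 9 members, 6 reached 5 CPM in β cells, and Cox6a2 alone was lower in Npc1KO by at least the set fold (0.32 on the log2 scale, relative to the median gene), the contrast it was picked from. Over all genes, 6.29% were lower and 7.46% higher by this fold, and no member was higher. The 5 common forms all lay within the fold. Cox4i1, the subunit through which ATP slows the enzyme, was at 403 CPM in WT and 421 CPM in Npc1KO. Cox8a, one of the smallest subunits, was at 430.0 and 456 CPM. Cox7a2, the general form of a small membrane subunit, was at 199.9 and 208 CPM, and Ndufa4, once assigned to complex I and now counted in complex IV, at 247 CPM in both. Their relative log2 ratios ran from -0.12 (Ndufa4) to -0.03, and the signs for Cox6a1, Cox4i1, Cox7a2 and Cox8a turned with the scaling. The other 3 members stayed under 5 CPM in both libraries, with 1.46 and 1.70 CPM of Cox7a1, 1.33 and 1.53 CPM of Cox4i2, and 3.92 and 3.60 CPM of Ndufa4l2.

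**Figure D1:**
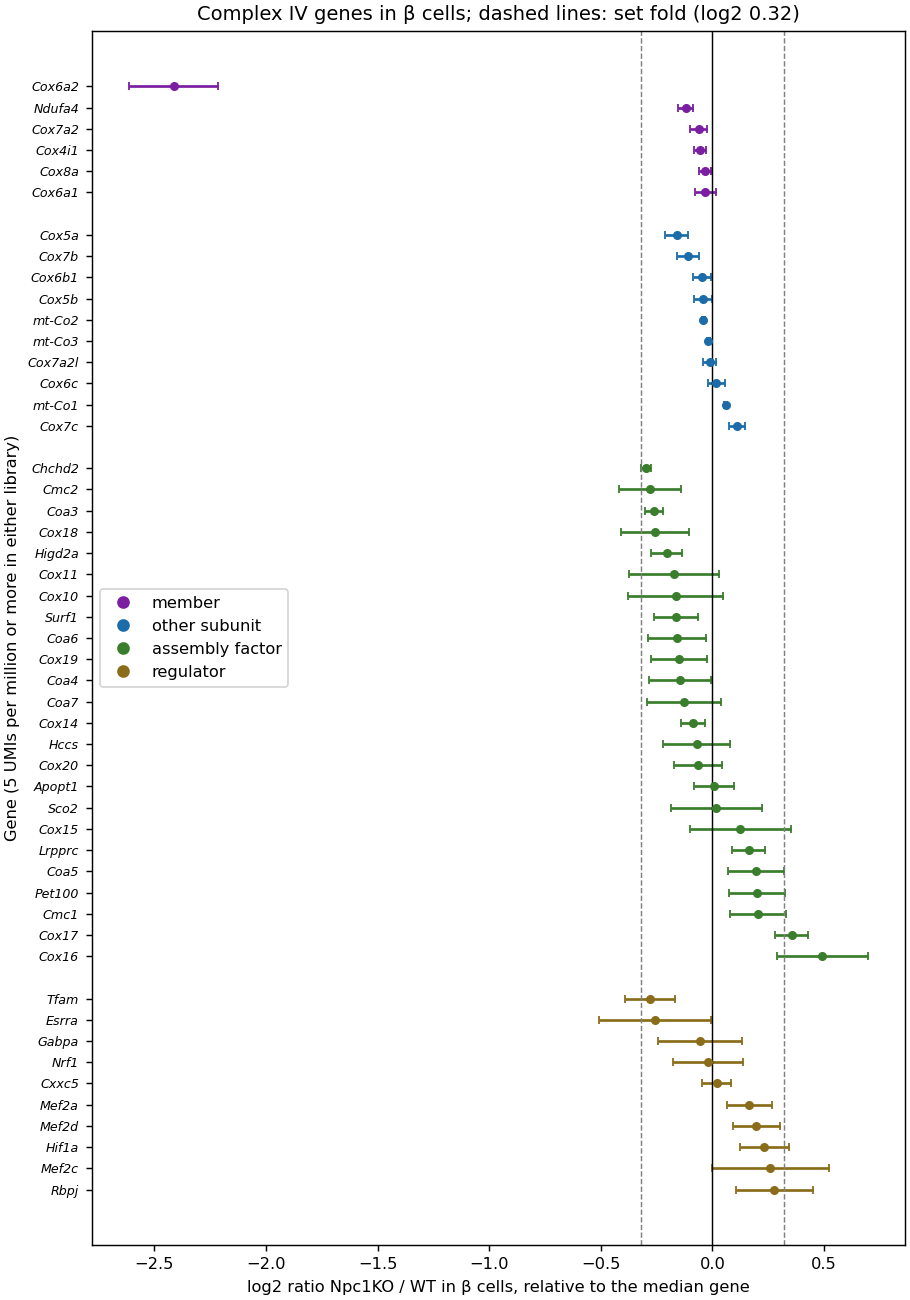
Log2 ratio of Npc1KO to WT in β cells relative to the median gene (x axis). Genes (y axis) are members, other subunits, assembly factors and regulators with at least 5 CPM in either library. Points are ratios of summed UMIs, bars 95% intervals for counting error, dashed lines the set fold of 0.32 on the log2 scale. Cox6a2 stands alone below the lower line at -2.41, while the other members lie between the dashed lines. The assembly factors Cox16 and Cox17 lie above the upper line. The signs of Cox6a1, Cox4i1, Cox7a2 and Cox8a turn with the scaling.

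For the other genes of the enzyme in β cells, counts past the fold stand beside 6.29% lower and 7.46% higher over all genes. The counts were near what these shares give, so they are no result about the enzyme. Of 15 other subunits 10 reached 5 CPM and all 10 lay within the fold, from -0.16 for Cox5a, a subunit on the matrix side, to 0.11 for the membrane subunit Cox7c. The mitochondrially encoded catalytic subunits mt-Co1, mt-Co2 and mt-Co3 lay at 0.06, -0.04 and -0.02. The median over the 10 was -0.03, beside 0 for all genes by construction. Of 28 assembly and biogenesis factors 24 reached 5 CPM, of which 0 were lower, 2 were higher and 22 lay within the fold, with a median of -0.11. The 2 were Cox17, a copper chaperone that feeds the metal to the catalytic core, with 48.4 CPM in WT and 67.3 CPM in Npc1KO and a relative log2 ratio of 0.35 (0.28 to 0.43), and the assembly factor Cox16 with 6.06 and 9.25 CPM and 0.49 (0.29 to 0.70). The lowest were Chchd2 (-0.30), a stress-responsive protein that binds complex IV, and the assembly factor Cmc2 (-0.28). Of 15 regulators known for these genes 10 reached 5 CPM and all lay within the fold, among them Tfam (-0.28), which maintains mitochondrial DNA, Nrf1 (-0.02), the muscle factor Mef2a (0.16) and the hypoxia factor Hif1a (0.23). Esrrg and Ppargc1a, which are known to drive respiratory genes in muscle, were low, at 1.79 and 2.14 CPM of Esrrg and 2 and 11 UMIs of Ppargc1a.

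Cox6a2 was spread unevenly over β cells. At least 1 UMI was counted in 514 of 1833 WT β cells (28.0%, 26.0 to 30.2) and in 166 of 1826 Npc1KO β cells (9.09%, 7.81 to 10.5). With every cell thinned to 5000 UMIs, which left out 26 and 22 shallower cells, the shares were 8.14% and 2.22%. In PP cells the shares were 1 of 411 WT cells (0.243%) and 2 of 442 Npc1KO cells (0.452%) at median depths of 18906 and 19458 UMIs. The median depth of β cells in the 2 libraries was nearly equal at 30417 and 30094 UMIs. If the same WT molecules had been spread over cells by depth alone, 47.8% of cells would carry at least 1, and for Cox6a1 this figure was 95.3% beside 96.6% counted. For Npc1KO Cox6a2 it was 12.6% beside 9.09% counted. In WT, 262 cells carried at least 2 Cox6a2 UMIs, 60 carried at least 5 and the highest carried 21. The 184 WT cells with the most held 66.8% of all Cox6a2 UMIs, beside 21.8% for Cox6a1. Such a share rises as the mean falls, and the means were 0.671 and 3.98 UMIs per cell, so the 2 shares are not like for like. In Npc1KO, 52 cells carried at least 2, 4 carried at least 5 and the highest carried 6. Cells high in Cox6a2 were thus present in both libraries, in smaller number and with lower counts in Npc1KO.

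Cox6a2 was lower in β cells with a high PP-family share than in those with a low share, in both libraries. β cells were divided by the share of their UMIs that came from Ppy and Pyy, PP-family hormones that are high in immature β cells. In WT, Cox6a2 stood at 38.2 CPM in cells under 0.1%, 29.1 CPM from 0.1% to 0.3%, 14.6 CPM from 0.3% to 1%, 4.65 CPM from 1% to 3% and 4.53 CPM in cells above. In Npc1KO the same bins stood at 9.19, 10.2, 4.80, 0.424 and 0.346 CPM, the last pair from 6 and 3 UMIs. Npc1KO cells were thus lower in each of the 5 bins, by relative log2 ratios of -2.12, -1.55, -1.70, -3.46 and -3.58. Cells with the highest PP-family share, the last 2 bins, were 335 and 156 in WT and 505 and 316 in Npc1KO, and between 34 and 83 cells lay within 10% of each limit in each library. Cox6a1 moved the other way and far less, from 132 to 147 CPM in WT and from 131 to 160 CPM in Npc1KO across the same bins. Levels are plain CPM, with no scaling to the median gene between bins. What part of the Cox6a1 rise comes from the other RNA of these cells was not tested.

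**Figure D2:**
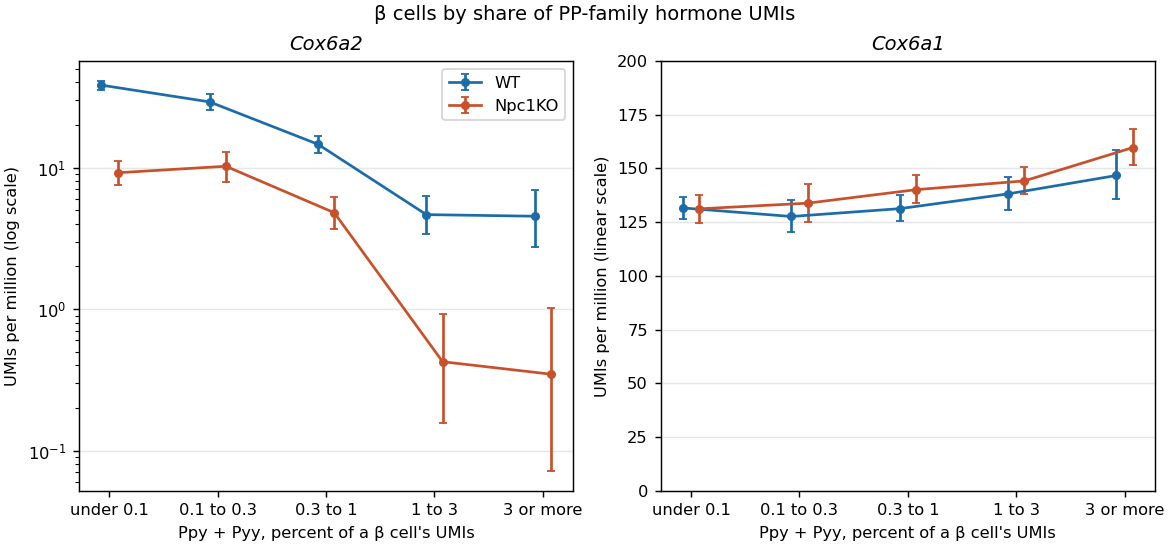
Level of Cox6a2 (left, log scale) and Cox6a1 (right, linear scale from 0) in CPM, in β cells divided by the percent of their UMIs from Ppy and Pyy; points are summed UMIs of 1 library, bars 95% Poisson intervals. Cox6a2 drops from 38.2 to 4.53 in WT and from 9.19 to 0.346 in Npc1KO, with Npc1KO below WT in each bin.

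β cells were also divided by Ucn3, a peptide of mature β cells, and Mafa, a transcription factor of the insulin gene. Where both were counted, Cox6a2 was at 26.3 CPM in 1458 WT cells and 6.28 CPM in 1187 Npc1KO cells. Where just 1 of them was counted, it was at 3.45 CPM in 262 WT and 0.987 CPM in 406 Npc1KO cells. Where neither was counted, 2 UMIs fell in 113 WT cells and 0 in 233 Npc1KO cells, of which the latter allows up to 0.569 CPM at a limit of 3 counts. Such a split also follows depth, since deeper cells have more chance to show a marker. By depth, Cox6a2 in cells of 1000 to 20000, 20000 to 30000, 30000 to 40000 and 40000 to 50000 UMIs was at 12.7, 13.6, 29.4 and 21.3 CPM in WT and at 1.84, 2.13, 6.48 and 5.14 CPM in Npc1KO, with Npc1KO lower in each by relative log2 ratios between -2.79 and -2.12. Dividing cells, with at least 3 UMIs of Top2a, Mki67 and Ube2c, had 6.40 CPM in WT (22 UMIs in 104 cells) and 2.19 CPM in Npc1KO (6 UMIs in 89 cells), against 23.5 and 4.71 CPM in the others.

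Cells with stress genes were mostly from WT, and within WT their Cox6a2 level was within counting error of the others. At least 0.1% of UMIs came from Fos, Hspa1a and 6 related genes in 396 WT and 58 Npc1KO β cells, and Cox6a2 was at 21.6 CPM (19.0 to 24.6) in these WT cells beside 22.6 CPM (21.3 to 24.1) in the other WT β cells. The 58 Npc1KO cells held 0 Cox6a2 UMIs, which at a limit of 3 counts allows up to 2.20 CPM. In cells under the limit the relative log2 ratio was -2.40 (-2.61 to -2.20).

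Among the 8 classes, Cox6a2 was scarce outside β cells. In α cells 53 UMIs were counted in WT (2.87 CPM, 2.15 to 3.75) and 27 in Npc1KO (1.57 CPM, 1.04 to 2.29), in 48 of 1048 and 25 of 857 cells with at most 2 UMIs in a cell. At the ratio of Cox6a2 to insulin seen in β cells, the insulin UMIs in α cells would go with 8.59 and 1.17 Cox6a2 UMIs, below both intervals of the counted values (39.7 to 69.3 and 17.8 to 39.3). A second hormone at 5% of UMIs or more was present in 159 WT and 174 Npc1KO α cells, and the relative log2 ratio was -0.88 with them and -0.85 without them. The part of free RNA and of doublets in these counts was not tested. In δ cells 0 and 1 UMIs were counted, in PP cells 1 and 2, in endothelial cells 2 and 2, in stellate cells 4 and 1, in mesenchymal cells 0 and 0 and in macrophages 2 and 4. In PP cells, whose insulin level (12353 and 14082 CPM) was close to or above that of α cells (10735 and 7365 CPM), the insulin UMIs would go with 4.36 and 1.22. Among the 8 classes, the order of levels was WT β, then Npc1KO β and WT α cells with separate intervals, then Npc1KO α cells. The interval of Npc1KO α cells meets that of WT α cells. The other 6 classes held 0 to 4 UMIs each and their order could not be told at this depth. This includes macrophages, with 7.08 CPM (1.93 to 18.1) from 4 UMIs in Npc1KO. WT B cells, which are not among the 8, held 4 UMIs (5.29 CPM, 1.44 to 13.5). Of the cells that took no class, 137 in WT held 36 Cox6a2 UMIs (25.7 CPM, 18.0 to 35.6) and 185 in Npc1KO held 3.

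**Figure D3:**
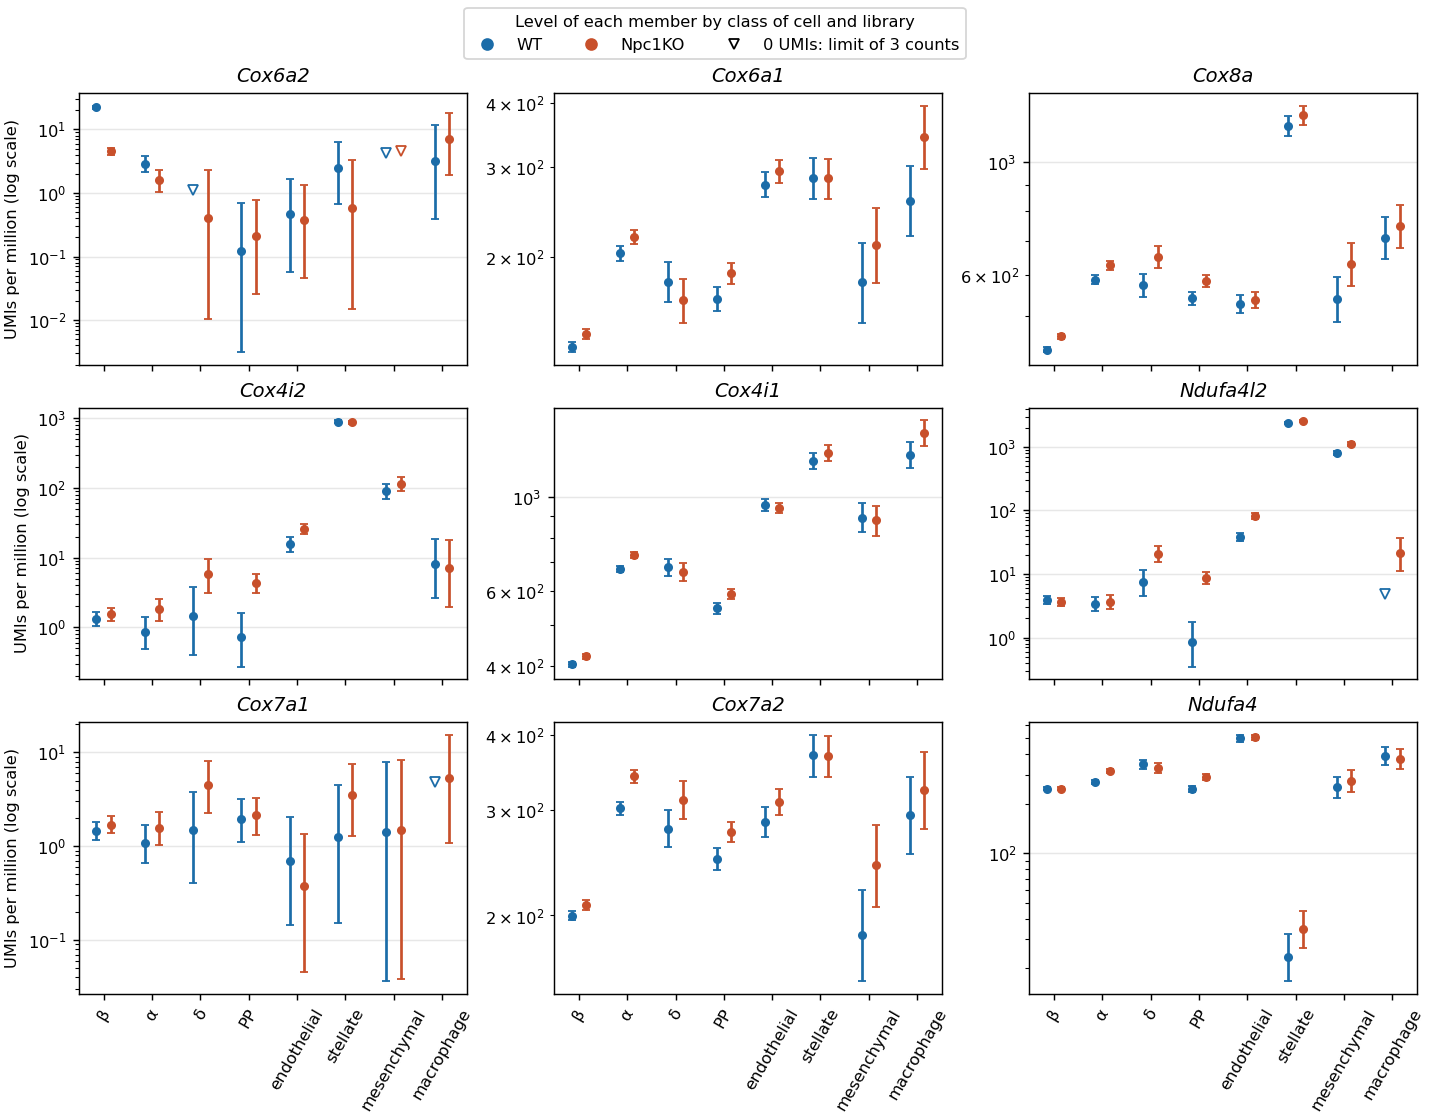
Level of the 9 members in CPM (y axes, log scale, each panel with its own range) by class of cell and library; points are summed UMIs of 1 library, bars 95% Poisson intervals, open triangles the limit that 0 UMIs allow. Cox6a2 stands out in WT β cells, Cox4i2 and Ndufa4l2 in stellate and mesenchymal cells, and Ndufa4 is low in stellate cells alone. The Cox6a2 point of Npc1KO β cells (4.58) lies below that of Npc1KO macrophages (7.08, from 4 UMIs).

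Stellate cells, the pericyte-like cells of islet capillaries, carried the tissue forms of other pairs. Ndufa4l2, which hypoxia-inducible factors are known to raise, was at 2388 CPM (2313 to 2465) in WT and 2570 CPM (2494 to 2646) in Npc1KO stellate cells and was counted in all 232 and all 252 of them. Its partner Ndufa4 was at 23.6 CPM (16.7 to 32.4) and 34.9 CPM (26.7 to 45.0), counted in 28 and 39 cells. In the other 7 classes Ndufa4 stood between 246 and 507 CPM, so the intervals of stellate cells lie apart from all of them. At the ratio seen in β cells, the insulin UMIs found in stellate cells would go with 18.6 of the 38 Ndufa4 UMIs in WT and 13.9 of the 60 in Npc1KO. Ndufa4l2 made up 99.0% (98.7 to 99.3) of the pair in WT and 98.7% (98.3 to 99.0) in Npc1KO stellate cells, beside 1.56% and 1.43% in β cells. Of the aligned sequences printed above, stellate cells in both libraries thus carried nearly only that of Ndufa4l2.

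Cox4i2, a form of the ATP-sensing subunit known from lung and oxygen-sensing cells, was at 891 CPM (846 to 939) and 874 CPM (831 to 920) in stellate cells and was counted in 228 of 232 WT and 247 of 252 Npc1KO cells. Unlike Ndufa4, its partner Cox4i1 was not low there, at 1214 and 1267 CPM. Cox4i2 made up 42.3% (40.7 to 44.0) of the pair in WT and 40.8% (39.2 to 42.4) in Npc1KO. Among the 8 classes, Cox8a was also highest in stellate cells, at 1176 and 1234 CPM against 430.0 to 749 CPM in the rest. CPM divides by totals that hold hormone RNA, and insulin stood at 518526 CPM in WT β and 24160 CPM in WT stellate cells. What part of the Cox8a difference comes from these totals was not tested. Relative log2 ratios between genotypes in stellate cells were 0.10 (0.04 to 0.16) for Ndufa4l2, -0.03 (-0.14 to 0.07) for Cox4i2 and 0.55 (-0.05 to 1.19) for Ndufa4. The hypoxia factor Epas1 stood at 517 and 658 CPM in stellate and 487 and 583 CPM in endothelial cells, beside 2.17 and 2.79 CPM in β cells.

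Mesenchymal cells, the fibroblast-like cells marked by collagen genes, came next. Ndufa4l2 was at 802 CPM (737 to 871) in WT and 1104 CPM (1026 to 1187) in Npc1KO and made up 76.1% and 80.0% of its pair, while Ndufa4 stood at 252 and 276 CPM. It was counted in 57 of 66 and 63 of 66 cells. Cox4i2 was at 90.1 and 115 CPM, 9.17% and 11.6% of its pair. The relative log2 ratio of Ndufa4l2 was 0.50 (0.34 to 0.67), in a class of 66 cells in each library where 27.2% of genes were higher and 27.5% lower by the set fold. The pericyte marker Rgs5 was at 435 and 912 CPM in this class, and at the stellate ratio it would go with 79.3 and 183 Ndufa4l2 UMIs, beside 561 and 737 counted. For Cox4i2 the values were 29.6 and 62.3 beside 63 and 77 counted. Rgs5 is a stellate marker of the class rule, which limits it in mesenchymal cells and may shape these differences. The source of these UMIs was not tested.

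In endothelial cells both genes were higher in the Npc1KO library. Ndufa4l2 was at 38.3 CPM (32.6 to 44.6) in WT and 81.9 CPM (74.4 to 89.9) in Npc1KO, and Cox4i2 at 15.4 CPM (11.9 to 19.6) and 25.8 CPM (21.7 to 30.5). The relative log2 ratios were 1.09 (0.83 to 1.36) and 0.73 (0.30 to 1.18), and 2.62 and 1.89 without the cells of highest doublet score, in a class where 9.01% of genes were higher by the set fold. Rgs5, a marker of stellate cells that share the capillary wall with endothelial cells, was at 140.0 CPM in WT and 266 CPM in Npc1KO, higher in the same library. At the stellate ratio to Rgs5, 156 and 428 Ndufa4l2 UMIs would be counted, beside 164 (140 to 191) and 438 (398 to 481), and 58.4 and 146 Cox4i2 UMIs beside 66 (51.0 to 84.0) and 138 (116 to 163). All 4 counted values met, within counting error, those that go with Rgs5, and the source of these UMIs was not tested. Rgs5 is also a stellate marker of the class rule, so the rule limits it in endothelial cells and favours it in stellate cells. The Ndufa4l2 UMIs lay in 22 of 429 WT and 45 of 434 Npc1KO cells, with up to 29 and 31 UMIs in a cell. The intervals take these UMIs as independent and may be too narrow.

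In hormone cells both genes were low and lay in few cells as well. The 215 WT and 195 Npc1KO Ndufa4l2 UMIs of β cells fell in 32 and 42 cells with up to 32 and 28 in a cell, and 173 and 205 would go with Rgs5. The WT interval (187 to 246) lies above its value and the Npc1KO interval (169 to 224) holds it. In PP cells Ndufa4l2 was at 0.859 CPM in WT (7 UMIs, all in 1 of 411 cells) and 8.77 CPM in Npc1KO (82 UMIs, in 10 of 442 cells), with 12.8 and 55.9 going with Rgs5. The relative log2 ratio of 3.20 became 1.32 (interval from -2.76, with no upper bound) without stressed cells and 4.11 without the cells of highest doublet score. The 82 Npc1KO Ndufa4l2 UMIs (65.2 to 102) stood beside 55.9 from Rgs5, and 40 Cox4i2 UMIs (28.6 to 54.5) beside 19.0. They lay in 10 and 5 of 442 cells, with up to 24 and 16 in a cell. The intervals take UMIs as independent. With so few cells they cannot show whether these counts lie above those that go with Rgs5. In δ cells Ndufa4l2 was at 7.37 and 20.97 CPM, from 20 (12.2 to 30.9) and 51 (38.0 to 67.1) UMIs in 5 and 6 cells. The 8.35 UMIs that go with Rgs5 lie below the WT interval, but 1 WT cell held 16 of the 20 UMIs. The 40.9 lie within the Npc1KO interval. Without the cells of highest doublet score the relative log2 ratio went from 1.48 to -0.14, but it was 3.59 under stricter limits on genes and mitochondrial UMIs. The plot of both genes beside Rgs5 leaves out macrophages, whose Npc1KO class held 33 cells; WT macrophages held 5 Cox4i2 UMIs (1.62 to 11.7) beside 0.195. Of the 7 classes plotted, mesenchymal Ndufa4l2 lies farthest above the line of equal values. Other points above it include Npc1KO PP cells for both genes, WT δ Ndufa4l2 (20 beside 8.35) and WT mesenchymal Cox4i2 (63 beside 29.6).

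**Figure D4:**
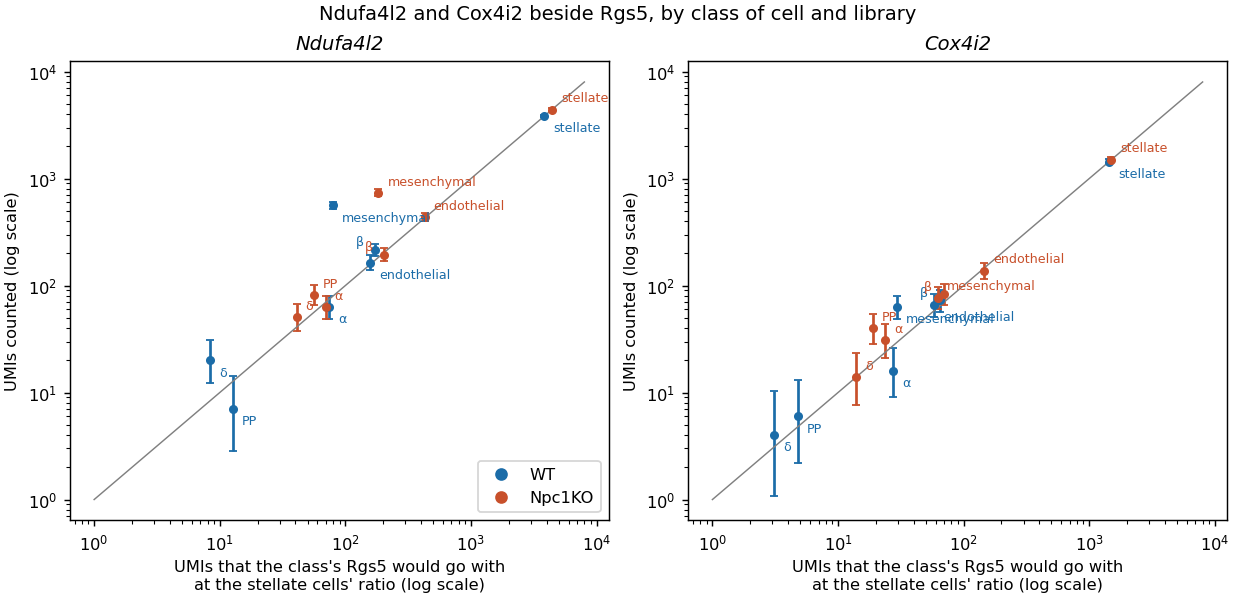
UMIs of Ndufa4l2 (left) and Cox4i2 (right) counted in each of 7 classes and each library (y axes) against the number that the class's Rgs5 UMIs would go with at the ratio of stellate cells (x axes), both on log scales; bars are 95% Poisson intervals and the grey line marks equal values. Stellate cells lie on the line by construction, endothelial cells close to it, and mesenchymal Ndufa4l2 with 561 and 737 UMIs above it.

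Cox7a1 was scarce in all 8 classes. It reached 1.46 and 1.70 CPM in β cells, 80 and 92 UMIs in 77 and 87 cells, beside 199.9 and 208 CPM of Cox7a2, and none of the 8 classes held over 5.31 CPM (3 UMIs, Npc1KO macrophages). Its share of the pair was 0.725% (0.575 to 0.902) in WT and 0.809% (0.653 to 0.992) in Npc1KO β cells and at most 1.61% (0.334 to 4.64) in any of the 8 classes. Cox8b, the muscle partner of Cox8a, gave 1 and 0 UMIs in β cells.

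**Figure D5:**
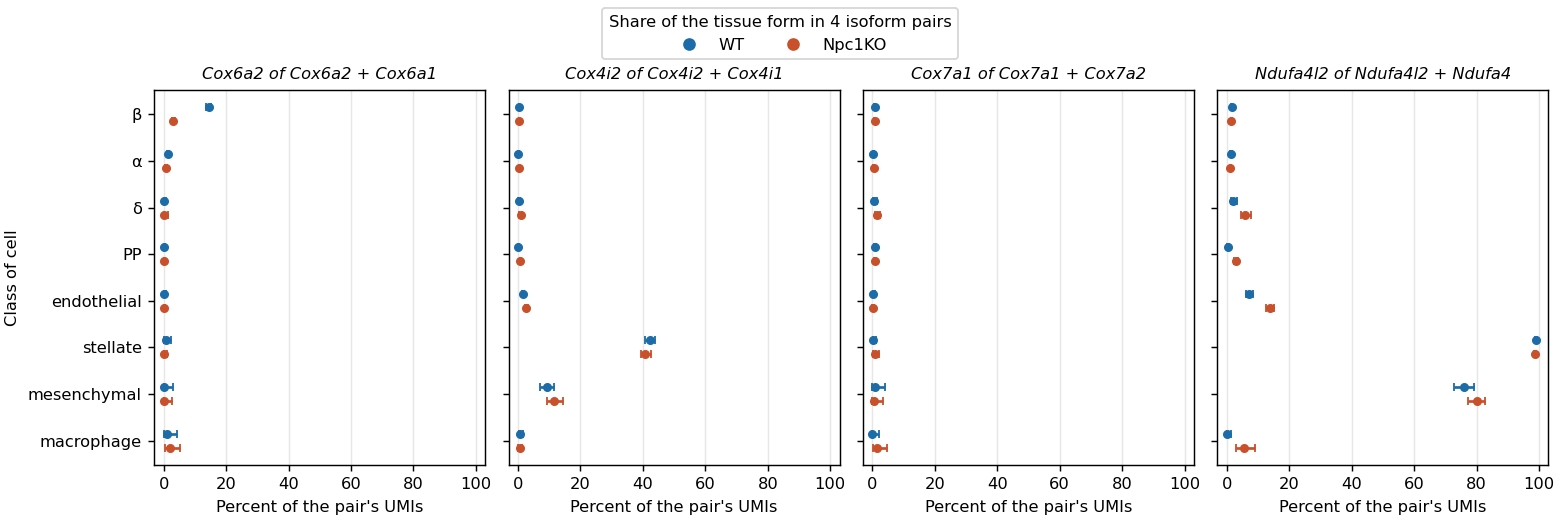
Share of the tissue form in the UMIs of each of 4 isoform pairs (x axes, percent) by class of cell (y axis) and library; points are shares in 1 library and bars 95% Clopper-Pearson intervals. Cox6a2 reaches 14.4% in WT β cells, Ndufa4l2 99.0% in WT stellate cells and Cox4i2 42.3%, while Cox7a1 stays at or under 1.61%.

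Over the 16 sums of class and library, the genes whose log2(CPM + 1) was most like that of Cox6a2 were Derl2 (Pearson r 0.75), Hist1h4i (0.75), Fam234a (0.74), Ero1lb (0.74) and Glrx (0.71), among 9917 genes. Ero1lb, an oxidase that helps proinsulin to fold, was at 354 CPM in WT and 308 CPM in Npc1KO β cells. The genes most like Ndufa4l2 were Aoc3, Nr2f2, Mylk, Rasl11a and Pdgfrb, with r of 0.99 each, all high in stellate cells. Outside β and α cells no sum held over 4 Cox6a2 UMIs, so its r rest in part on counts whose order could not be told. Npc1KO macrophages, for example, entered at 7.08 CPM from 4 UMIs, above Npc1KO β cells at 4.58 CPM. Sums of 1 library share their depth and free RNA, and all these r describe the libraries only.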

How the data were processed

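Single-cell RNA sequencing of islet cells was analysed from 2 libraries, 1 WT and 1 Npc1KO. The deposited tables hold UMI counts of genes in barcodes, which the authors aligned to mm10 with Cell Ranger 3.1.0 per the submitters' processing notes without normalization; the study's cell filters had not been applied to the deposited counts. The labels name the v3 kit for 3′ ends and the study's methods name v2. All later steps were run here in Python 3.11.15, with Scrublet within scanpy 1.11.5, Biopython 1.88, scipy 1.17.1, pandas 2.3.3 and numpy 2.4.6, and R 4.3.3 (edgeR 4.0.16, for the TMM factor only).

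Barcodes were kept with over 1000 genes, under 50000 UMIs, under 10% mitochondrial and at most 0.1% haemoglobin UMIs, and no doublets were removed in the values of the report. A cell took the class of its leading hormone at 10% of UMIs or more, and otherwise of the marker list with at least 3 markers counted and at least 2 times the UMIs of the next list; this last rule was set after the data were seen. UMIs were summed by library and class and divided by the class total. Ratios added 0.5 counts, were taken relative to the median gene among those that reached 5 CPM in WT or Npc1KO, and were given for classes with at least 50 cells in each. A 3′ tag is counted once per molecule, so CPM does not scale with gene length. Intervals are exact Poisson (levels), Clopper-Pearson (shares) and conditional binomial (ratios) at 95%, and a count of 0 was given a limit of 3 counts. No test was run, since each genotype has 1 library. The script for ratios was tested on simulated data.

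The named genes were the 9 members, all other subunits, assembly factors by count with the 2 highest and 2 lowest ratios, regulators, and the 5 genes most like Cox6a2 and Ndufa4l2. Regulators given by value and Epas1 were chosen after their values were seen. Members and lists were chosen with earlier results of these data known.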

Additional observations from a re-analysis of the deposited data

Results flagged for a closer look

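For 4 of the common forms, the log2 ratio of Npc1KO to WT relative to the median gene had an interval below 0 in β cells and above 0 in α cells. The ratio in α cells minus that in β cells was 0.14 for Cox4i1 (0.08 and -0.06), 0.21 for Cox7a2 (0.15 and -0.06), 0.10 for Cox8a (0.06 and -0.03) and 0.31 for Ndufa4 (0.19 and -0.12). All of these lay within 0.32 of the median gene on the log2 scale in both classes, the intervals cover counting error only, and the difference between classes was not tested, since each genotype has 1 library. Intervals above 0 were also found for Cox7a2 in δ (0.15), PP (0.09) and mesenchymal cells (0.43), for Cox8a in δ (0.17) and mesenchymal cells (0.27), and for Ndufa4 in PP cells (0.17). The signs in β cells turned with the scaling for Cox4i1, Cox7a2 and Cox8a. Without stressed cells the α value of Cox4i1 was -0.017 and that of Ndufa4 0.085, with an interval that reached 0 (-0.0035 to 0.17).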

How the results depend on the processing

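The log2 ratio of Cox6a2 in β cells kept its sign under all 13 alternatives, from -3.58 to -1.98. Cox6a2 was picked by this fall and each alternative reuses the same libraries, so the kept sign is no support for it. The ratio moved beyond its counting interval with no upper limit on UMIs (-2.19), in β cells under 1% Ppy and Pyy (-1.98) and in those with 1% or more (-3.58). The Cox6a2 share of its pair moved under the same settings, to 3.79% in Npc1KO with no upper limit, to 17.8% in WT and 5.33% in Npc1KO under 1%, and to 3.17% and 0.262% at 1% or more, and it was 13.0% in WT with cells thinned to 5000 UMIs. The 5 common forms stayed within the fold in β cells in each of 65 values, from -0.18 to 0.09. The number of genes past the fold in β cells was 1218 (557 lower, 661 higher), 471 among genes of 20 CPM or more, 7747 with no filter, 235 at a fold of 1.5, and 1825 as plain CPM ratios (246 lower, 1579 higher). Signs turned for Cox4i1 in β cells with plain ratios (0.064) and without hormone genes in the totals (0.0058), for Cox7a2 (0.059 and 0.00062) and for Cox8a (0.086 and 0.027, as well as 0.0050 with the median over genes of 20 CPM or more and 0.0026 as a mean over cells). Cox6a1 in β cells, whose interval included 0 as reported, was 0.088 with plain ratios, 0.029 without hormone genes in the totals, 0.0070 with that median and 0.015 under stricter limits on genes and mitochondrial UMIs. Ndufa4l2 in β cells, below 5 CPM, went from -0.24 to 1.74 without stressed cells and to 0.27 under 1% Ppy and Pyy. Signs turned for Cox4i2 and Ndufa4l2 in δ cells without the highest doublet scores (-1.37 and -0.14), for Cox4i2 in α cells with the leading hormone at 20% (-0.61), and without stressed cells for Cox4i1 and Cox4i2 in α (-0.017 and -1.28) and Cox6a1 in PP cells (-0.038). The cause was not tested. No paired analysis was possible because each genotype has 1 library, and for the same reason no replicate could be left out.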

Other observations

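Less common forms of the enzyme also followed the cell class. AA467197, the mouse counterpart of a paralogue of Ndufa4 known from activated macrophages, was at 35.2 CPM in WT and 54.9 CPM in Npc1KO macrophages and at most 0.535 CPM in the other 7 classes. Cox6b2, known as the testis form of a subunit facing the intermembrane space, was at 23.6 and 28.5 CPM in stellate, 17.2 and 20.97 CPM in mesenchymal cells and gave 162 and 206 UMIs in α cells (8.76 CPM in WT), beside 0.840 and 1.55 CPM in β cells. In α cells its relative log2 ratio was 0.42. It alone passed the set fold among the 11 other subunits at 5 CPM or more there, where 4.12% of all genes were higher by this fold. Cox7b2 gave 3 and 2 UMIs in β cells.

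Barcodes left out by the filters gave values for Cox6a2 as well. With insulin leading and 50000 UMIs or more, 153 WT barcodes stood at 25.6 CPM (22.6 to 29.0) and 343 Npc1KO barcodes at 7.40 CPM (6.35 to 8.58). With a mitochondrial share of 10% or more, 82 WT barcodes held 35 UMIs (26.7 CPM, 18.6 to 37.1) and 60 Npc1KO barcodes held 2 (2.13 CPM, 0.258 to 7.70).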
